A study of Mus musculus with 6 samples.

Results

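The sodium pump and the channels that set the excitability of the muscle membrane were followed here through 7 genes of mouse hind leg muscle. The genes were Atp1b1, Atp1b2, Fxyd1, Scn4a, Clcn1, Kcnj2 and Kcnj11, taken by gene symbol from the 16759 genes of the deposited table, and each matched 1 row. RNA was sequenced from 3 sedentary mice (Con) and 3 trained mice (EX), all male C57BL/6J and 8 weeks old at the start, with 1 library per mouse. EX mice ran on a treadmill for 60 min per day, 5 days per week, for 6 weeks, over 22 km each, and tissue was taken 24 h after the final run. Con mice did not run. Each library came from a small piece of hind leg muscle freed of the fat between muscles, and the muscle itself is not named. The question put to these genes was whether their transcript levels differed between EX and Con.

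Each action potential of a muscle fibre lets sodium in and potassium out. The Na,K-ATPase restores both gradients, with an alpha subunit that splits ATP, a beta subunit that folds the pump and carries it to the surface, and a FXYD protein that tunes its affinity for sodium. The sodium channel starts the spike, and the chloride and inward rectifier potassium channels hold the resting potential and damp repeated firing. Loss of function or gain of function in several of these channel genes gives myotonia or periodic paralysis.

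The estimated counts summed to between 13845362 and 16240431 per library, and the 20 most abundant genes took 30.13% to 32.52% of them. The muscle identity of the libraries was clear, since the 7 skeletal fibre markers (Acta1, Ckm, Ttn, Neb, Des, Mb and Pygm) summed to at least 83460 CPM (counts scaled to library depth) in every library. No batch is named in the labels. In bulk muscle, fewer cells of a type and less RNA per cell cannot be told apart.

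Of the 7 genes, 4 passed the test between EX and Con, and they moved in both directions. Kcnj2, the inward rectifier potassium channel that clamps the resting potential, fell by 0.28 on the log2 scale, and Atp1b1, a beta subunit of the pump, fell by 0.15. Kcnj11, the pore of the ATP-sensitive potassium channel, rose by 0.21, and Atp1b2, the other main beta subunit, rose by 0.18. Scn4a, Fxyd1 and Clcn1 did not pass, with log2 fold changes of -0.10, 0.08 and 0.02. All changes were small: mean CPM fell by 17.7% for Kcnj2 and was 15.3% higher for Kcnj11, the extremes of the 7.

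The test was edgeR's quasi-likelihood test on the counts with Benjamini-Hochberg adjustment over the 10883 genes that averaged 1 FPKM (fragments per kilobase of transcript, scaled to library depth) or more, and a gene was called at an adjusted p under 0.05. Of all genes tested, 17.9% were called, 9.11% higher in EX and 8.8% lower, and the CPM values of the groups did not overlap for 33.7%. Of the 7 genes, 2 were called higher and 2 lower, and 3 (Atp1b2, Kcnj2 and Kcnj11) had groups that did not overlap. Their median log2 fold change was 0.02, against -0.00 for all genes tested. All 7 genes passed the filter.

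**Figure D1:**
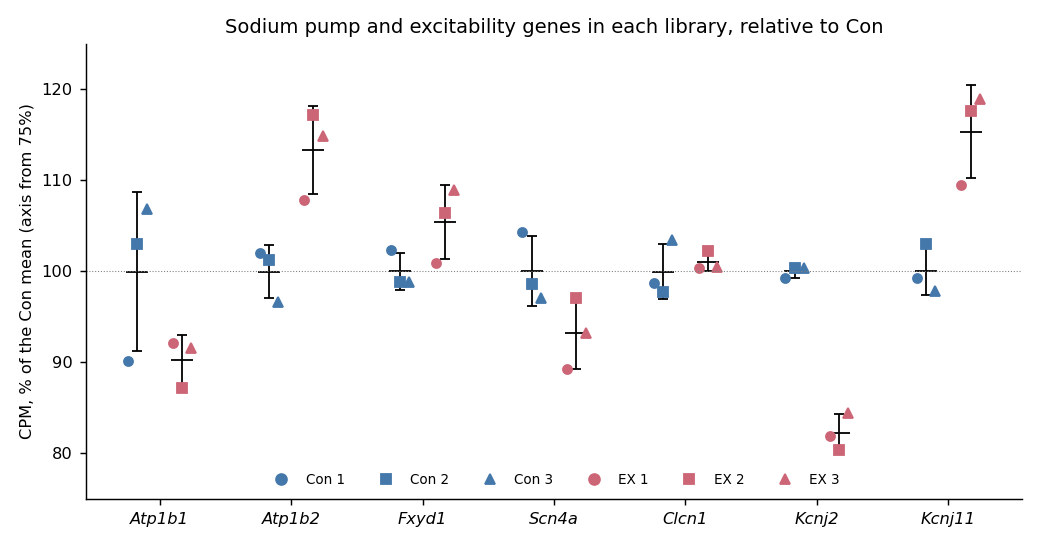
CPM of the 7 genes in each of the 6 libraries as a percentage of the Con mean (y axis, starting at 75%). Blue points are Con and red points EX, and horizontal bars with whiskers are the mean and SD of 3 mice. Kcnj2 lies lower in all 3 EX libraries and Atp1b2 and Kcnj11 higher, while the Con replicate 1 point of Atp1b1 lies among the EX points.

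The sequence in front of an annotated RefSeq start is shown for both genes that fell, Kcnj2 and Atp1b1, and for Clcn1, whose level did not pass the test, so that the windows can be read side by side. Each line gives the 250 bases before the RefSeq start, 5′ to 3′ on the strand of the gene, on build GRCm38.p6. Capitals mark a GC box (GGGCGG, which reads CCGCCC where it lies on the other strand), the E-box CAGCTG, or the binding motif of MEF2, all searched on both strands. The windows are chr11:111065914-111066163 (plus strand) for Kcnj2, chr1:164458356-164458605 (minus strand) for Atp1b1 and chr6:42286435-42286684 (plus strand) for Clcn1. The start used for Clcn1 lies inside the annotated gene, so its window is not shown to lie in front of the whole gene.
Kcnj2: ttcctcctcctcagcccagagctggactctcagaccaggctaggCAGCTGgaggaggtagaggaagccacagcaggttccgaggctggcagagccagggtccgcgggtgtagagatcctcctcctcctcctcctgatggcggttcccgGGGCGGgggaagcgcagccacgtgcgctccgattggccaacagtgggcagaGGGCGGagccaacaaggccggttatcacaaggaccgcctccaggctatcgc
Atp1b1: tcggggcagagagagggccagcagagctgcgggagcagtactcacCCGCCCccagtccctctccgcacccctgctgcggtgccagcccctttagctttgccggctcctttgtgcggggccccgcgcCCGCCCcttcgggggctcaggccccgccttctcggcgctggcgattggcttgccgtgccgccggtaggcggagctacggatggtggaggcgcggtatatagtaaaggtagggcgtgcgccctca
Clcn1: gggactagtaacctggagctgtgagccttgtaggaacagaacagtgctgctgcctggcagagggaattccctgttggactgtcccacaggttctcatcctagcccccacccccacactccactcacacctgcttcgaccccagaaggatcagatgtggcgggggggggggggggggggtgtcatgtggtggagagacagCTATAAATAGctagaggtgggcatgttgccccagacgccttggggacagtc
Kcnj2 held GC boxes that begin 102 and 51 bases before the start and a CAGCTG at 206 bases, and Atp1b1 held GC boxes at 205 and 124 bases. The Clcn1 window held neither, and held a MEF2 match at 51 bases. Of the 32851 mouse windows of this length, 32.7% held a GC box, 13% a CAGCTG and 2.92% a MEF2 match. The windows of Fxyd1 and Scn4a held none of these letters. Atp1b2 and Kcnj11 had no entry.

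Per length, the 7 genes spanned a wide range of levels. Fxyd1, which codes for phospholemman, the FXYD protein of the pump in muscle, stood at the top with 637 FPKM over the 6 libraries, rank 124 of the genes in the table. The muscle sodium channel Scn4a and the pump subunit Atp1b2 followed at 116 and 122 FPKM, and then Clcn1 at 76.0, Atp1b1 at 68.2, Kcnj11 at 56.3 and Kcnj2 at 20.7 FPKM. The order was the same in all 6 libraries but for 1 pair. Scn4a lay above Atp1b2 in every Con library (120.11 to 126.61 against 113.78 to 118.26 FPKM) and below it in every EX library (106.27 to 113.39 against 121.96 to 130.18 FPKM). Clcn1 and Atp1b1 were level in Con replicate 2 at 75.4 and 75.2 FPKM, so their order in Con is within the spread of the mice. In EX replicate 2 Atp1b1 was level with Kcnj11, at 60.64 and 59.99 FPKM. The FPKM of Fxyd1 rests on an effective length of only 233 to 247 bases, the ratio of its counts to its FPKM, so its place at the top depends on that short length.

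**Figure D2:**
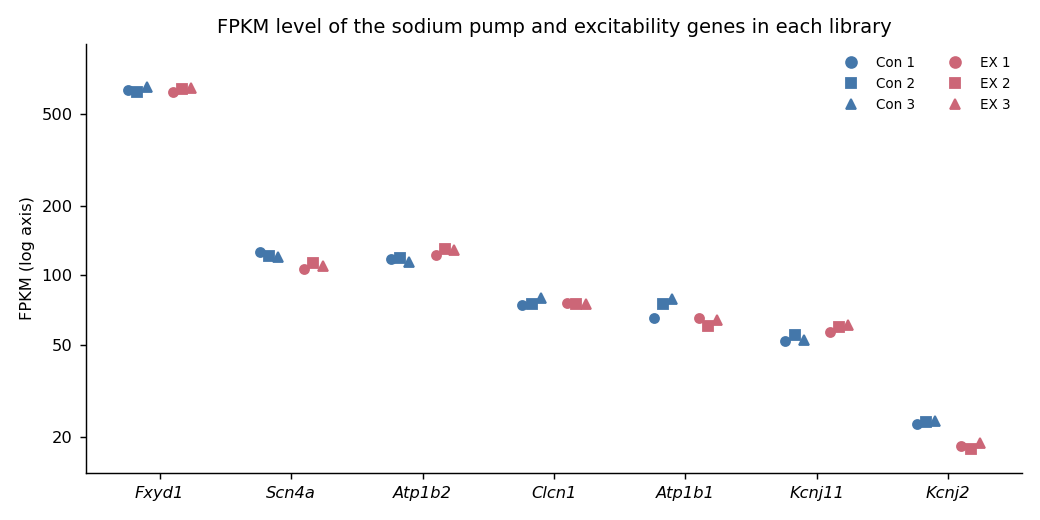
FPKM of the 7 genes in each library on a log axis, ordered by their mean in Con, with Con in blue and EX in red and 1 point per mouse. Fxyd1 stands alone above 600 FPKM and Kcnj2 alone near 20 FPKM, and Scn4a and Atp1b2 change places between Con and EX.

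Among the beta subunits, Atp1b2, the form that fast glycolytic fibres mainly use, rose in EX. Its level was 314, 311 and 297 CPM in the Con mice and 332, 360 and 353 CPM in the EX mice, so that every EX library lay above every Con library. The mean was 307 ± 9.04 CPM in Con and 348 ± 14.9 CPM in EX (SD, n = 3 each). The log2 fold change was 0.18, with a 95% interval of 0.10 to 0.26 and an edgeR adjusted p of 0.00123. The call was lost where limma replaced edgeR and FPKM or TPM replaced counts: with limma on log2(FPKM + 0.1) the log2 fold change was 0.12 with an adjusted p of 0.0694, and on log2(TPM + 0.1) it was 0.09 with 0.141. With edgeR and library totals the log2 fold change was 0.125 and the call held (adjusted p 0.0169).

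Atp1b1, the beta subunit that oxidative fibres mainly use, moved the other way. As reported its change was smaller than that of Atp1b2, but with library totals it was larger (-0.205 against 0.125). The level of Atp1b1 was 147, 168 and 174 CPM in Con and 150.1, 142 and 149 CPM in EX. Con replicate 1 lay within the range of the EX libraries, so the groups overlapped. The mean was 163 ± 14.2 CPM in Con and 147 ± 4.41 CPM in EX. This gave a log2 fold change of -0.15 with a 95% interval of -0.25 to -0.05 and an edgeR adjusted p of 0.0337. Without Con replicate 1 the log2 fold change was -0.22 (adjusted p 4.16e-05), and leaving out any of the other 5 libraries ended the call (adjusted p between 0.0577 and 0.184). DESeq2 gave an adjusted p of 0.0803. The gene Nme7 overlaps Atp1b1 and stood at 1.51 to 2.46 CPM, and whether reads were counted by strand is not given in the sources used here.

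The other 2 genes of the beta subunit family did not pass the test. Atp1b3, a widely expressed beta subunit, had a log2 fold change of 0.00 (edgeR adjusted p 0.988), with 48.1 to 52.2 CPM in Con and 48.4 to 52.0 CPM in EX. Of the 4 genes of this family, all tested, 1 was called higher and 1 lower.

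Set per length, Atp1b1 made 30.7%, 33.3% and 35.0% of the summed FPKM of the beta subunit family in the Con mice. In the EX mice it made 29.8%, 27.7% and 28.7%. All 3 EX values were below all 3 Con values. The mean share was 32.97 ± 2.18% in Con and 28.7 ± 1.04% in EX, and Atp1b2 made 52.7% and 57.5%. The exact permutation test (two-sided) gave p = 0.1, the smallest that 3 mice against 3 allow, so none of the 3 ratios compared in this way could pass, and the adjusted p was 0.15. Atp1b3 made 12.9% in Con and 12.5% in EX.

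**Figure D3:**
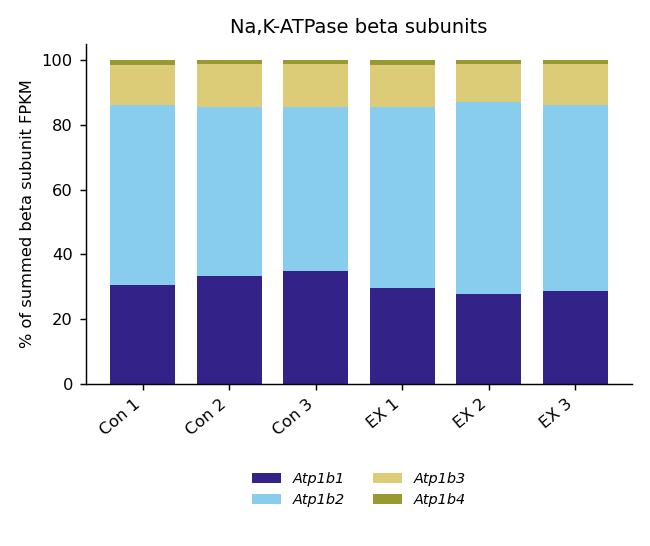
Percentage of the summed FPKM of the 4 genes of the beta subunit family that each gene makes (y axis), with 1 stacked bar per library. Atp1b2 makes over 50% in each library, and the dark Atp1b1 segment is shorter in the EX bars than in the Con bars.

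Fxyd1, whose product tunes the pump's affinity for sodium, was at 154, 149 and 148 CPM in Con and 152, 160 and 164 CPM in EX. EX replicate 1 lay between the Con values, so the groups overlapped. The log2 fold change was 0.08 with a 95% interval of -0.01 to 0.16 (edgeR adjusted p 0.215), it was not called under any of the 16 alternative settings, and it turned to -0.03 on the TPM scale. Of the 5 FXYD genes tested, 1 was called: Fxyd6 was at 21.8 to 23.4 CPM in Con and 16.6 to 19.4 CPM in EX, a fall of 0.33 on the log2 scale (edgeR adjusted p 0.00200).

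Scn4a codes for the pore of the sodium channel that carries the upstroke of the muscle action potential. Its level was 974, 920 and 906 CPM in Con and 833, 906 and 870 CPM in EX. EX replicate 2 lay just above Con replicate 3, so the groups overlapped slightly, at 906 CPM. The mean was 933 ± 35.8 CPM in Con and 870 ± 36.3 CPM in EX, which gave a log2 fold change of -0.10 with a 95% interval of -0.18 to -0.03. Its edgeR adjusted p of 0.0569 missed the threshold. The gene passed in 8 of the 16 alternatives, each time lower in EX. Among them were scaling by library totals (-0.16, adjusted p 0.00132) and limma on log2(FPKM + 0.1) (-0.16, adjusted p 0.033). These 2 settings also lowered the median log2 fold change of all genes, from -0.001 as reported to -0.057 and -0.056. On the FPKM scale the groups did not overlap, but the share of all genes that did so on that scale was not counted.

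Scn4b, an auxiliary subunit that rides with Scn4a, had a log2 fold change of the same sign that did not pass (-0.07, edgeR adjusted p 0.178). The other 8 of the 10 sodium channel genes followed lay under the filter.

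Clcn1, the chloride channel that stabilises the resting membrane and whose loss causes myotonia, had the log2 fold change nearest to 0 of the 7. It stood at 316, 312 and 331 CPM in Con and at 321, 327 and 321 CPM in EX, and all EX values lay inside the Con range. The log2 fold change was 0.02 with a 95% interval of -0.06 to 0.09 (edgeR adjusted p 0.820). Its sign turned to -0.04 with library totals, so no direction can be given. None of the 6 tested genes of the ClC family list was called. The FPKM ratio of Scn4a to Clcn1 was 1.60 ± 0.0979 in Con and 1.46 ± 0.0520 in EX, and the groups overlapped (exact permutation p = 0.2, adjusted 0.2). Fam131b overlaps Clcn1 and held 2 to 8 reads per library.

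Kcnj2, which codes for the strong inward rectifier Kir2.1, showed the largest log2 fold change of the 7 genes and the smallest adjusted p. It was at 116, 117 and 117 CPM in the Con mice and at 95.7, 93.9 and 98.6 CPM in the EX mice. The lowest Con value was well above the highest EX value. The mean was 117 ± 0.800 CPM in Con and 96.1 ± 2.37 CPM in EX. The log2 fold change was -0.28, with a 95% interval of -0.37 to -0.20 and an edgeR adjusted p of 1.38e-05, and all 16 alternatives called it lower.

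Its closest relative in muscle did not pass the test. Kcnj12, which codes for the strong inward rectifier Kir2.2 and assembles with Kir2.1, was at 79.6 to 86.4 CPM in Con and at 82.2 to 89.9 CPM in EX, with a log2 fold change of 0.07 (SE 0.047, edgeR adjusted p 0.357). The FPKM ratio of Kcnj2 to Kcnj12 was 1.06, 1.14 and 1.17 in the Con mice and 0.876, 0.901 and 0.871 in the EX mice. Kcnj2 was thus above Kcnj12 per length in every Con library and below it in every EX library. The exact permutation test of this ratio gave p = 0.1, the smallest possible, and 0.15 after adjustment. The other 9 inward rectifier genes listed were under the filter or had no row in the table.

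Kcnj11, which codes for Kir6.2, the pore of the ATP-sensitive potassium channel that opens when the fibre runs short of ATP, rose. Its level was 145, 150.5 and 143 CPM in Con and 160.0, 172 and 174 CPM in EX, and every EX value was above every Con value. The mean was 146 ± 3.86 CPM in Con and 168.5 ± 7.49 CPM in EX. The log2 fold change was 0.21, with a 95% interval of 0.12 to 0.29 and an edgeR adjusted p of 0.000766. It was called in 15 of the 16 alternatives, and limma on log2(TPM + 0.1) gave 0.12 with an adjusted p of 0.0866.

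Of the other 3 subunits of the ATP-sensitive channel, 2 passed the filter and both fell. Abcc9, the sulfonylurea receptor of muscle and vessels, was at 401 to 407 CPM in Con and 359.9 to 372 CPM in EX, a fall of 0.14 on the log2 scale (edgeR adjusted p 0.00403). Kcnj8, the pore of the vascular form of the channel, was at 26.5 to 31.7 CPM in Con and 21.0 to 22.2 CPM in EX, a fall of 0.45 (edgeR adjusted p 2.68e-05). Abcc8, the sulfonylurea receptor of beta cells and nerve, lay under the filter at 2.004 to 2.79 CPM in Con and 2.01 to 3.67 CPM in EX, with a log2 fold change of 0.29 in the fit without a filter (adjusted p 0.426). Markers of smooth muscle and pericytes, where Kcnj8 is also made, summed to 959.6 to 986 CPM in Con and 787 to 810.1 CPM in EX. Of the 8 tested, 5 were called lower, among them the pericyte genes Rgs5 (-0.36) and Pdgfrb (-0.40), and 1 higher, the smooth muscle actin Acta2 (0.15, called in 4 of the 16 alternatives). Their part in the fall of Kcnj8 and Abcc9 was not tested.

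A wider set of 95 other pump and excitability genes was followed in the same fit, and 90 of them had a row. Of the 53 that passed the filter, 4 were called higher and 13 lower, against 9.11% and 8.8% of all genes tested, and their median log2 fold change was -0.07. The balance of rises and falls over the whole table moved with the scaling. Of all genes called, 991 of 1949 were higher in EX here, 772 of 2031 with totals that leave out the 20 most abundant genes, 586 of 2357 with library totals, 411 of 1448 with limma on log2(FPKM + 0.1) and 340 of 2024 with limma on log2(TPM + 0.1).

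Potassium channels outside the inward rectifiers fell where they were called, 5 of 13 tested. These were Kcnq5 (-0.39), a slow M-type channel, Kcna5 (-0.24), a delayed rectifier, Kcnc1 (-0.21) and Kcnc4 (-0.14), both fast delayed rectifiers, and Kcnma1 (-0.15), the calcium-activated channel of large conductance. Kcnma1 was called in only 5 of the 16 alternatives, with adjusted p up to 0.165, against 12 or more for each of the other 4. Kcna1 and Kcna2, channels of myelinated axons, lay under the filter, and in the fit without a filter Kcna2 had a log2 fold change of -0.90 (adjusted p 3.5e-05) and Kcna1 -0.48 (adjusted p 0.0143). Schwann cell markers summed to 125.2 to 138 CPM in Con and 99.6 to 104 CPM in EX, with 4 of 6 tested called lower and none higher. Their part in these changes was not tested.

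Carriers that move the same ions without ATP showed 3 of 9 tested called, all lower. Slc12a2, the sodium-potassium-chloride cotransporter, fell by 0.17 on the log2 scale (edgeR adjusted p 0.0125), with 119 to 127 CPM in Con and 102 to 117 CPM in EX. Both sodium-calcium exchangers on the list, Slc8a1 and Slc8a3, fell too, by 0.33 and 0.14, and Slc8a3 was called in 12 of the 16 alternatives, with adjusted p up to 0.124.

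The voltage sensor of the transverse tubule, which turns the action potential into calcium release, had 6 genes tested, of which 2 were called higher, 1 lower and 3 not called. Its pore subunit Cacna1s fell by 0.13 on the log2 scale, while the gamma subunit Cacng1 rose by 0.15 and Stac3, an adaptor needed for coupling, rose by 0.15. Among 10 tested regulators of pumps and channels, Ank1, an ankyrin anchor, rose by 0.27 (edgeR adjusted p 2.56e-06) and Nedd4l, a ubiquitin ligase that removes ion channels from the membrane, rose by 0.18, whereas Ank2, the ankyrin that anchors the pump and the exchanger, fell by 0.21. The kinase Sgk1 and the other 6 did not pass. Nedd4l was called in 8 of the 16 alternatives, over all of which its log2 fold change ranged from 0.09 to 0.21 and its adjusted p reached 0.368. Cacng1 was called in 11 of the 16, with a log2 fold change down to 0.056 and an adjusted p up to 0.29. Stac3 was called in 12, with a log2 fold change down to 0.047 and an adjusted p up to 0.368.

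**Figure D4:**
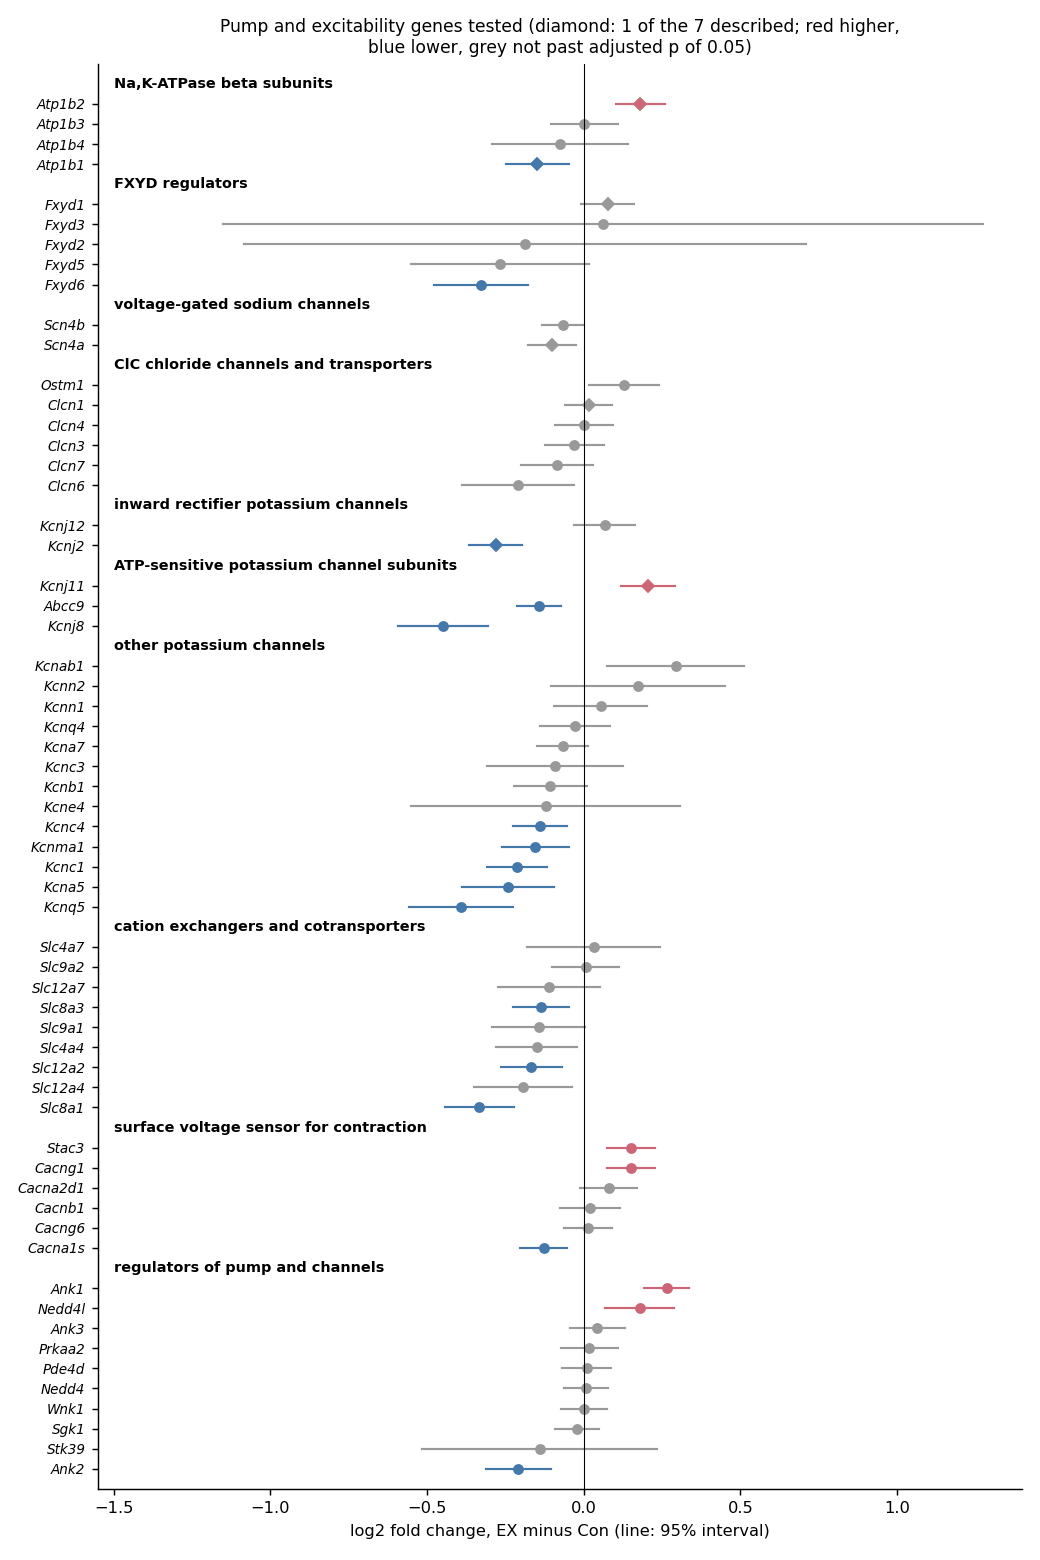
Log2 fold change, EX minus Con, of the 60 pump and excitability genes that passed the filter, grouped by role, with 95% intervals from edgeR as lines. Diamonds are the 7 described genes, red is called higher, blue called lower and grey not called, and blue points outnumber red ones by 15 to 6.

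Other cell types and fibre types also differed between the groups, and the piece of muscle taken is the only unit measured. Slow fibre markers summed to 131 to 137 CPM in Con and 388 to 412 CPM in EX, and all 8 tested were called higher, with Myh7, the slow myosin heavy chain, at a log2 fold change of 6.65. Fast fibre markers summed to at least 141500 CPM in Con and at least 150900 CPM in EX, with 6 of 10 called higher and 2 lower. The 2 lower were the myosin heavy chains Myh2 (-0.75 on the log2 scale) and Myh1 (-0.09). Endothelial markers summed to 716 to 729 CPM in Con and 629.6 to 648 CPM in EX, with 4 of 8 called lower and 1 higher.

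Markers of 5 further cell types or states had higher sums in EX. Macrophage markers summed to 40.5 to 44.5 CPM in Con and 74.5 to 81.7 CPM in EX (6 of 7 called higher), and fibroblast markers to 873 to 894 and 1189 to 1196 CPM (3 of 6 called higher, all collagens, while Pdgfra at -0.14, Dcn at -0.10 and Lum at 0.05 on the log2 scale were not called). Adipocyte markers summed to 14.02 to 15.3 and 34.7 to 39.1 CPM (4 of 4 called higher), tendon markers to 170.2 to 186 and 244.5 to 261 CPM (3 of 5 called higher), and markers of regenerating fibres to 16.3 to 18 and 34.8 to 38.9 CPM (1 of 2 called higher). None of these 5 lists had a member called lower, and no marker on any list was at 0 in all 6 libraries. The part of these cell and fibre types in the changes of the 7 genes was not tested.

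For each of the 4 genes that passed the test, the genes with the most similar pattern over the 6 libraries were found by the root mean square difference of centred log2 CPM. Kcnj2 was closest to Id3 (0.016) and Arhgap31 (0.020), and Kcnj11 to Gas6 (0.021) and Pdcd5 (0.021). Atp1b2 was closest to Col6a3 (0.016) and to Nedd4l (0.017), the ligase of the regulator list. Atp1b1 was closest to Fbxo30 (0.017) and Ajuba (0.024), and neither passed the test itself (edgeR adjusted p 0.102 and 0.337).

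**Figure D5:**
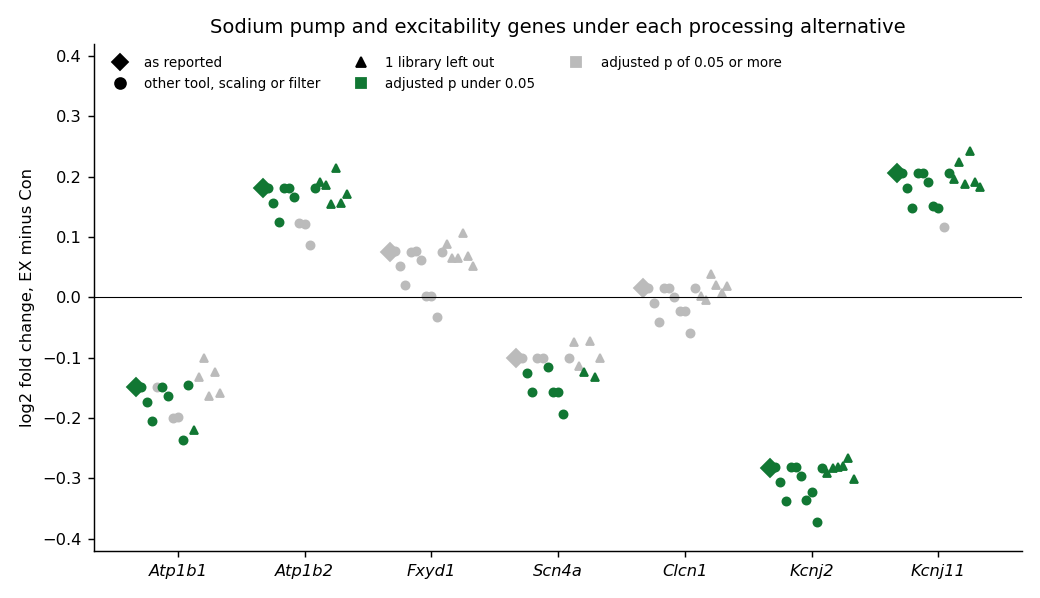
Log2 fold change, EX minus Con, of the 7 genes as reported (diamonds), under 10 other tools, scalings or filters (circles) and with 1 library left out (triangles), in green where the adjusted p was under 0.05. Kcnj2 is green throughout, Fxyd1 and Clcn1 are grey throughout, and Atp1b1, Atp1b2, Scn4a and Kcnj11 hold both colours.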

How the data were processed

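Hind leg muscle RNA of 3 Con and 3 EX mice was sequenced by the authors as 150 bp paired-end reads on DNBseq. The study's methods name HISAT and GRCm39, while the submitters' processing notes list build GRCm38.p6, cutadapt, featureCounts and MultiQC, so the build is unsettled. The authors deposited estimated counts, which are not normalized, with FPKM and TPM values per gene and library. Of the deposited values of estimated count, 4.18% to 4.44% per library were not whole. The 6 columns of group means were not used.

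Estimated counts were rounded and tested with edgeR 4.0.16 (glmQLFit and glmQLFTest, TMM) in R 4.3.3 on the 10883 genes that averaged 1 FPKM or more. Alternatives were DESeq2 1.42.0, limma 3.58.1 on log2(FPKM + 0.1), log2(FPKM + 1) and log2(TPM + 0.1), which understate changes of low genes, other scalings and filters, a replicate block and each library left out. CPM use TMM totals. P-values set the difference between the groups against the spread between libraries. With 1 library per mouse, from 1 piece of muscle, mouse and piece cannot be told apart.

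The genes and lists were chosen with earlier results of these data known. Named were the 7 genes, the 12 largest called changes per direction of the wider lists, set partners, and the 2 genes nearest in pattern. Slc8a3, Cacna1s, Scn4b, Abcc8, Kcna1, Kcna2 and Sgk1 were named after their values were seen, and the overlapping genes from RefSeq positions. Some planned genes and 2 planned ratios are not reported here, and the list counts leave those genes out. Windows are from RefSeq GRCm38.p6, which held 5 of 7 genes.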

Additional observations from a re-analysis of the deposited data

How the results depend on the processing

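Kcnj2 kept its call under all 16 alternatives, and the replicate block changed the call of none of the 7 genes (Atp1b1 -0.15, adjusted p 0.0404) and gave 1782 genes called against 1949. Same-numbered libraries had correlations of deviations of -0.078, -0.051 and -0.027, and differently numbered ones had -0.035 to 0.082. These values show no sign that the replicate numbers pair the mice, but cannot exclude it. DESeq2 called 1228 genes. Atp1b1 was not called with DESeq2 (-0.15) or limma on log2(FPKM + 0.1) (-0.20) or log2(FPKM + 1) (-0.20), and ranged from -0.22 to -0.10 with 1 library left out. Atp1b2 was not called with limma on log2(FPKM + 0.1) (0.12), log2(FPKM + 1) (0.12) or log2(TPM + 0.1) (0.087), and Kcnj11 not on log2(TPM + 0.1) (0.12). Scn4a became called with totals without the 20 most abundant genes (-0.13), library totals (-0.16), a mean of at least 5 FPKM (-0.12) and limma on log2(FPKM + 0.1) (-0.16), log2(FPKM + 1) (-0.16) and log2(TPM + 0.1) (-0.19), and ranged from -0.13 to -0.072 with 1 library left out, where it was called without Con replicate 3 or EX replicate 2. Fxyd1 turned to -0.033 on log2(TPM + 0.1). Clcn1 turned to -0.009 without the 20 most abundant genes, -0.041 with library totals, -0.023 with limma on log2(FPKM + 0.1) and on log2(FPKM + 1) and -0.059 on log2(TPM + 0.1), and ranged from -0.004 (without Con replicate 2) to 0.039 with 1 library left out. The median of all genes was -0.057 with library totals, -0.056 with limma on log2(FPKM + 0.1) and -0.091 on log2(TPM + 0.1), against -0.001 here. The cause of these changes was not tested.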
